A study of Homo sapiens with 16 samples.

Results

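The genes described here encode the subunits of the mitochondrial oxidative phosphorylation complexes, together with TMEM70, a factor for the assembly of ATP synthase. They were chosen by symbol: names that begin with NDUFA, NDUFB, NDUFC, NDUFS or NDUFV, the SDH subunits A to D, names that begin with UQCR, COX followed by a digit from 4 to 8, or ATP5, and the single genes CYC1 and TMEM70. The rule found 96 of the 19077 genes in the table. It gathered 37 subunits of complex I, 4 of complex II, 9 of complex III, 18 of complex IV and 15 of ATP synthase. The other 13 members are TMEM70, the complex I assembly factors NDUFAF1 to NDUFAF4, the readthrough transcripts NDUFC2-KCTD14 and ATP5J2-PTCD1, the near copies UQCRHL, ATP5L2 and NDUFA4L2, and ATP5SL, ATP5S and COX4NB. COX4NB is now named EMC8 and belongs to a membrane protein complex of the endoplasmic reticulum, so the pattern took it in by its older name alone.

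The study recovered RNA with the RISC trap from HEK 293 cells, a human embryonic kidney line. In this method a dominant-negative piece of GW182 holds target mRNAs on Argonaute, and the transcripts that come down with the complex are sequenced. There were 2 libraries for each of 6 miRNAs, namely mir550-3p, mir3613-5p, mir1180-3p, mir1301-3p, mir1260a-5p and mir1271-5p. For mir124-3p there were 4, with Solid in the title of 1 and Illumina in those of 3. The title of every library names a miRNA and no library of untrapped RNA was used here, so each miRNA was read against the other miRNAs, and stronger recovery of a transcript cannot be told apart from a higher level of it in the cells. All groups share the line and the trap; no dose or time is given in the labels. Because each library is bulk RNA, fewer cells with a transcript and less of it per cell cannot be told apart. The labels call some libraries replicates without naming separate cultures. The descriptions of both mir550-3p libraries and of replicate 2 of mir1301-3p hold the letters bio, which the labels do not explain. The p-values therefore measure the spread between these libraries, which may be technical.

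Oxidative phosphorylation takes electrons from NADH at complex I and from succinate at complex II, passes them through coenzyme Q, complex III, cytochrome c and complex IV to oxygen, and uses the proton gradient built on the way to drive ATP synthase. All complexes except complex II combine subunits from the nuclear and the mitochondrial genomes; the members here are the nuclear ones. A miRNA pairs with mRNAs mainly through its seed, the bases 2 to 8 from its 5′ end.

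The mature miRNAs that define the 6 pairs of libraries are shown because each comparison below is named for one of them. They come from RefSeq, written 5′ to 3′ with the seed in capitals.
miR-1180-3p: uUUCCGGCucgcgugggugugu
miR-1260a: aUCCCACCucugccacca
miR-1271-5p: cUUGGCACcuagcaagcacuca
miR-1301-3p: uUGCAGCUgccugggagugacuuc
miR-3613-5p: uGUUGUACuuuuuuuuuuguuc
miR-550a-3p: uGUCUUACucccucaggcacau
No seed occurred more than once among the 6. On GRCh38.p14, miR-1180-3p lies at chr17:19344513-19344534 on the minus strand within the span of B9D1, miR-1260a at chr14:77266231-77266248 on the plus strand within NGB, and miR-1271-5p at chr5:176367960-176367981 on the plus strand within ARL10. MiR-1301-3p lies at chr2:25328651-25328674 on the minus strand within DNMT3A, and miR-3613-5p at chr13:49996465-49996486 on the minus strand within the lncRNA DLEU2. The sequence of miR-550a-3p is encoded at chr7:29680748-29680769 on the minus strand and chr7:32733041-32733062 on the plus strand. RefSeq gives miR-1260a without an arm, while the labels write mir1260a-5p. Matches to these seeds within the members' transcripts were not analysed here.

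Total counts per library ranged from 7612758 to 26527365, and the members took between 1.48% and 2.51% of them. Of the 9 HEK 293 markers, 7 had a median of at least 5 CPM, the share of a library's counts scaled to a common total. KRT8 and PAX2 did not. The sum of all 9 ran from 1490 to 2620 CPM over the 12 libraries of the 6 miRNAs. Summed blood markers reached at most 12 CPM there, and liver and muscle markers at most 12.9 CPM. Summed neuron and glia markers ran from 19.9 to 35.9 CPM and fibroblast markers from 7.84 to 147 CPM, both highest for mir1301-3p. Counts of TNRC6A, the gene of GW182, lay between 5670 and 16100 CPM in those 12 libraries, at 50700 CPM in the mir124-3p Solid library, and at 46700, 13900 and 48500 CPM in Illumina replicates 1, 2 and 3. Illumina replicate 2 therefore stood apart from the other mir124-3p libraries in this gene. Readthrough genes were counted differently in the libraries titled Illumina: 58 of 60 readthrough genes had exactly the count of a partner gene, or the sum of both partners, in every Illumina library, against 0 of 60 in the 13 other libraries.

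Of the 96 members, 94 had enough counts to be tested over the 12 libraries; COX6A2 and COX7B2, tissue forms of complex IV subunits, did not. A member was called where edgeR's quasi-likelihood test gave an adjusted p under 0.05 (Benjamini-Hochberg, over every gene in the test), with each miRNA set against the mean of the other 5 (10 libraries). A fold change here is relative to the mean of the 5 groups on the log2 scale and so can differ from the ratio of mean CPM. Because the comparisons share their reference libraries, they are not independent of each other. In all, 18 members were called for at least 1 of the 6 miRNAs, TMEM70 and ATP5C1 for 2 of them, and 76 members for none. For mir1301-3p alone, 11.5% of all genes were called higher and 4.39% lower. The share of all genes called for at least 1 miRNA was not counted, so the 18 are not read as a result about the members.

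**Figure D1:**
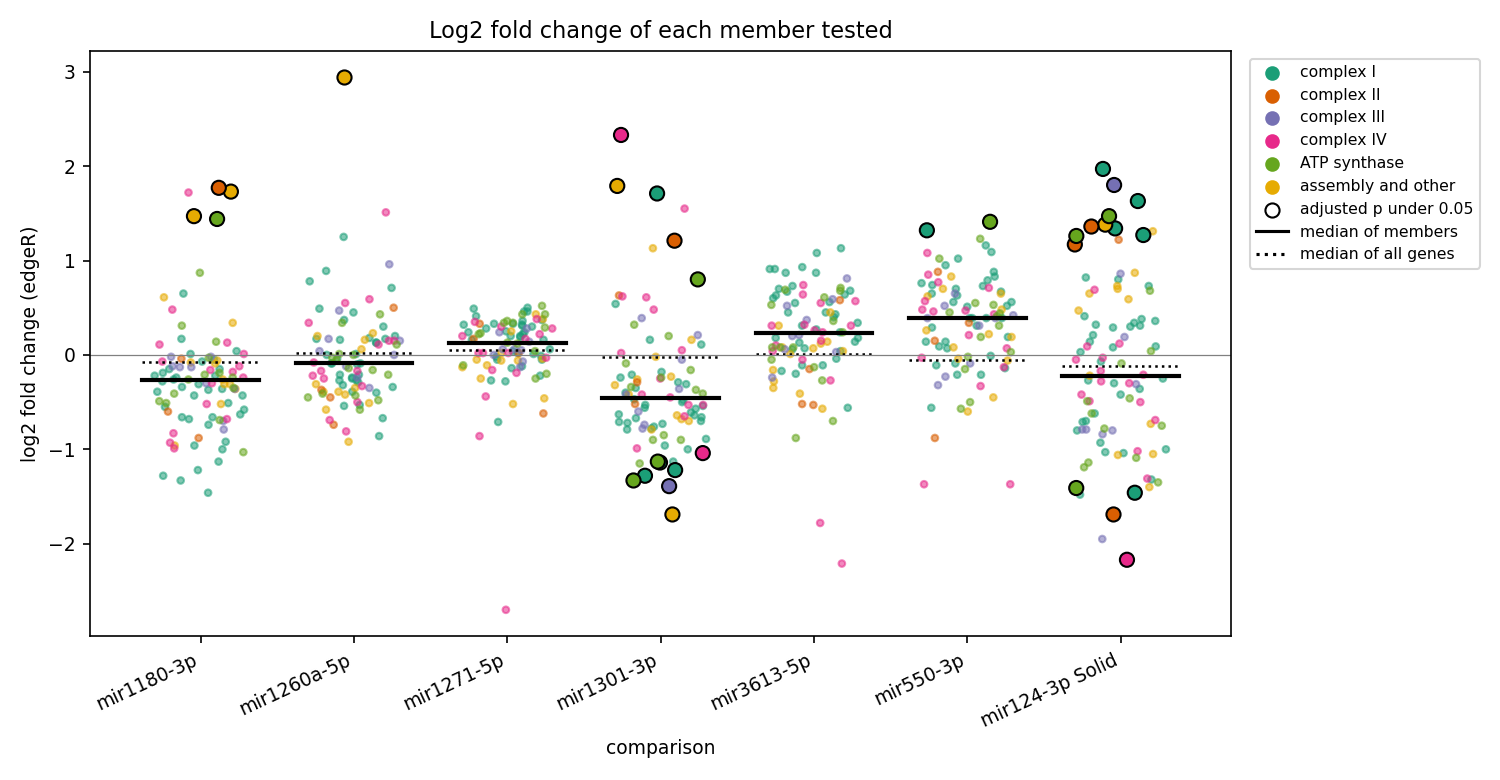
Log2 fold change (edgeR) of each member tested, for the 6 miRNAs against the other 5 and for the mir124-3p Solid library against the 6. Colours mark the complex, outlined points have an adjusted p under 0.05, and solid and dotted lines are the medians of members and of all genes. TMEM70 is the outlined point at 2.94 for mir1260a-5p, and the members' medians range from -0.46 for mir1301-3p to 0.39 for mir550-3p.

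TMEM70 stood apart in the mir1260a-5p libraries. It was at 1170 and 977 CPM there, against 58.5 to 237 CPM in the 10 other libraries, with a median of 155 CPM. The lower of the mir1260a-5p libraries was 4.13 times the highest of the others, so the groups did not overlap. The fitted log2 fold change was 2.94 ± 0.25 (SE; 7.66-fold; edgeR adjusted p = 1.27e-05), and over 17 alternative settings it ranged from 2.78 to 3.05 and was called in each. TMEM70 was the only member called for mir1260a-5p, which is 1.06% of the members tested, where 0.215% of all genes were called higher and 0% lower. The gene was taken into the members by its own name, with earlier results known, so this share is not read as a result about the group.

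No other member was called for mir1260a-5p. The median of all members tested was -0.09 on the log2 scale, against 0.02 for all genes. The nearest to the threshold was NDUFA9, an accessory subunit of complex I, at 110 and 162 CPM against 28.3 to 89.8 CPM in the others (log2 fold change 1.25 ± 0.25, edgeR adjusted p = 0.0511). Its groups did not overlap, and it was not called. UQCR10, a small subunit of complex III, had a log2 fold change of 0.96 ± 0.29 (edgeR adjusted p = 0.428), with an SD of 631 CPM around a mean of 1180 CPM over its 2 libraries. The lowest values among members of at least 5 CPM were those of NDUFAF4 (-0.92), NDUFA2 (-0.86) and COX7A2L (-0.81), none of them called. Among 87 other genes of the pathway (assembly factors of the complexes, cytochrome c and coenzyme Q genes, regulators and carriers), 0 were called by edgeR for mir1260a-5p and 7 had an unadjusted p under 0.05. Of the 6 genes listed there for ATP synthase assembly and regulation, the function closest to TMEM70, 5 had a negative fold change and none was called.

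TMEM70 was lower for mir1301-3p. It was at 88 and 58.5 CPM in those libraries against 99.7 to 1170 CPM in the 10 others, without overlap (log2 fold change -1.69 ± 0.34, edgeR adjusted p = 0.00911). With the mir1260a-5p libraries taken out of the reference the value was -1.15, and the gene was still called. It was not called without mir1301-3p replicate 1 (-1.95, edgeR adjusted p = 0.074) or without replicate 2 (-1.49, edgeR adjusted p = 0.111). For the remaining miRNAs TMEM70 was not called: the log2 fold change was -0.09 for mir1180-3p, -0.52 for mir1271-5p, -0.57 for mir3613-5p and -0.06 for mir550-3p.

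CYC1, the haem-bearing cytochrome c1 of complex III, varied in another order. It was at 252 and 278 CPM for mir3613-5p, at 268 and 254 CPM for mir550-3p, at 175 and 173 CPM for mir1180-3p, at 177 and 175 CPM for mir1271-5p, at 116 and 235 CPM for mir1260a-5p, and at 35 and 117 CPM for mir1301-3p. The mir3613-5p and mir550-3p libraries overlapped each other, as did those of mir1260a-5p and the groups next to it. CYC1 was called for mir1301-3p alone (-1.39 ± 0.41, edgeR adjusted p = 0.0334), where replicate 1 was far below replicate 2, and replicate 2 overlapped with the reference.

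**Figure D2:**
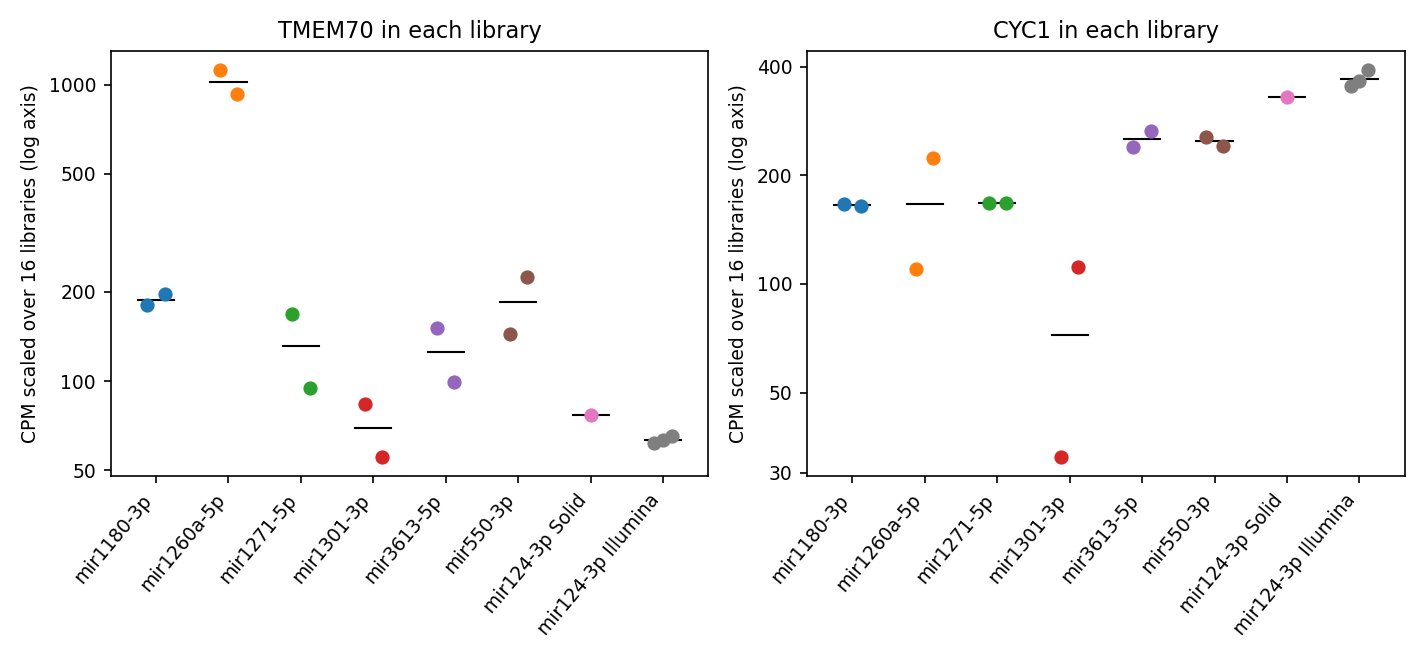
CPM of TMEM70 and CYC1 in each of the 16 libraries, scaled over all 16, on log axes; points are libraries and bars are group means. TMEM70 is highest in both mir1260a-5p libraries, and CYC1 is lowest in 1 of the mir1301-3p libraries.

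Among the mir1180-3p libraries, 4 of 94 members were called higher (4.26%, against 1.92% of all genes) and 0 lower (0.153% of all genes). SDHC, a membrane anchor of complex II that carries haem, was at 53.9 and 69.6 CPM against 11.3 to 34.2 CPM (3.42-fold, log2 1.77 ± 0.26, edgeR adjusted p = 0.000485). NDUFAF4, an assembly factor of complex I, was at 308 and 424 CPM against 64.5 to 154 CPM (3.31-fold, log2 1.73 ± 0.25, edgeR adjusted p = 0.000411). ATP5J, a subunit of the ATP synthase stalk (coupling factor 6), was at 1160 and 1420 CPM against 334 to 569 CPM (2.71-fold, log2 1.44 ± 0.23, edgeR adjusted p = 0.00113). In all 3 genes both mir1180-3p libraries were above each of the 10 others.

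The other member called for mir1180-3p was the readthrough ATP5J2-PTCD1, at 359 and 369 CPM against 70.7 to 149 CPM (2.77-fold, log2 1.47 ± 0.25, edgeR adjusted p = 0.00177). Its counts went with those of one partner: PTCD1, a mitochondrial RNA-binding protein, had 3755 and 2921 counts in the mir1180-3p libraries and 440 to 1754 in the 10 others, while ATP5J2 had 1247 and 636 counts there and 875 to 1673 elsewhere. Reads of the readthrough and of its partners cannot be told apart in these counts, so the call is uncertain for the ATP5J2 part. Without mir1180-3p replicate 2, NDUFAF4 (1.51, edgeR adjusted p = 0.051), ATP5J (1.32, edgeR adjusted p = 0.0764) and ATP5J2-PTCD1 (1.48, edgeR adjusted p = 0.0526) were not called, and only SDHC remained. ATP5J2-PTCD1 was also lost without replicate 1 (1.45, edgeR adjusted p = 0.0612).

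Most other members leaned the opposite way for mir1180-3p without being called. Of the 37 subunits of complex I, 33 had a negative log2 fold change, with a median of -0.39, and 12 (32.4%) had an unadjusted p under 0.05. Of all genes, 55.7% were negative and 13.7% had such a p. All 9 subunits of complex III were below 0. The lowest values were those of NDUFS7 (-1.46 ± 0.49, edgeR adjusted p = 0.176), NDUFA11 (-1.33 ± 0.42, 0.136) and NDUFS8 (-1.28 ± 0.45, 0.201). NDUFS7 and NDUFS8 are core subunits that hold iron-sulphur clusters. The median of all members was -0.27, beside -0.07 for all genes, and 18 of 94 were positive. With upper-quartile scaling the medians were -0.12 and 0.09, and 34 were positive. By DESeq2 the split was 4 higher and 3 lower. Of the 87 other pathway genes 2 were called higher, both complex IV factors: CMC1, which helps complex IV assembly (5.15-fold, edgeR adjusted p = 1.1e-05), and LRPPRC, which stabilises mitochondrial mRNAs (2.2-fold, edgeR adjusted p = 0.0173).

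The descriptions of the mir1301-3p and mir550-3p libraries take another form than those of the other 4 miRNAs. Whether these forms mark batches is not stated in the labels, and miRNA and form cannot be told apart in the comparisons of these miRNAs with the other 4.

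For mir1301-3p, 5 members were called higher (5.32%, against 11.5% of all genes) and 8 lower (8.51%, against 4.39%). NDUFB10, an accessory subunit in the membrane arm of complex I, was at 1040 and 1300 CPM against 213 to 476 CPM in the 10 others (3.26-fold, log2 1.71 ± 0.25, edgeR adjusted p = 0.00102). SDHB, the iron-sulphur subunit of complex II, was at 184 and 141 CPM against 47.6 to 103 CPM (2.32-fold, log2 1.21 ± 0.26, edgeR adjusted p = 0.0128). NDUFB10 was called under each of 18 alternatives, from 1.43 to 2.09. Both genes were above the range of the reference in both libraries.

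The genes of the c-ring of ATP synthase moved in opposite directions for mir1301-3p. ATP5G1, ATP5G2 and ATP5G3 encode the same mature protein. ATP5G3 was at 2250 and 1930 CPM against 914 to 1600 CPM (1.74-fold, log2 0.80 ± 0.25, edgeR adjusted p = 0.0399). ATP5G1 was at 46.7 and 80 CPM against 71.9 to 302 CPM (log2 -1.33 ± 0.39, edgeR adjusted p = 0.0334). ATP5G2 was at 214 and 298 CPM against 227 to 835 CPM and was not called. The ATP5G3 libraries did not overlap with the reference, while those of ATP5G1 and ATP5G2 did.

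The other members called higher for mir1301-3p were NDUFA4L2 and COX7A1, both at low counts. NDUFA4L2, a paralog of the complex IV subunit NDUFA4, had 73 and 57 counts, or 7.88 and 5.35 CPM, against 0.581 to 3.12 CPM (log2 1.79 ± 0.47, edgeR adjusted p = 0.0236). COX7A1, the heart and muscle form of COX7A, had 9 and 11 counts, or 0.971 and 1.03 CPM, against 0 to 0.918 CPM (log2 2.33 ± 0.71, edgeR adjusted p = 0.0372). By DESeq2 COX7A1 was not called (2.37, adjusted p = 0.107), and its log2 fold change was 1.04 with mir550-3p as the only reference. With that reference NDUFA4L2 (1.99, edgeR adjusted p = 0.0695), SDHB (0.73, 0.175) and ATP5G3 (0.79, 0.119) were not called either. The number of members called was still larger with it, at 18 against 13 in the main fit. The share of all genes called with that reference is not given. ATP5G3 also lost its call with mir1260a-5p taken out of the reference (0.74, edgeR adjusted p = 0.0533).

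Among the members lower for mir1301-3p beside TMEM70, CYC1 and ATP5G1 were 3 accessory subunits of complex I. NDUFB9 was at 34.1 and 50.7 CPM against 64.2 to 142 CPM (log2 -1.28 ± 0.31, edgeR adjusted p = 0.0189). NDUFA8 was at 24.7 and 22.9 CPM against 26.4 to 85.7 CPM (-1.14 ± 0.31, edgeR adjusted p = 0.0271). NDUFA9 was at 36.6 and 28.3 CPM against 34.3 to 162 CPM (-1.22 ± 0.31, edgeR adjusted p = 0.0204). Of these NDUFA9 overlapped with the reference. Beyond the genes named by size, COX7A2, a complex IV subunit, and ATP5C1, the gamma subunit of ATP synthase, were also called lower. COX7A2 was at 106 and 150 CPM against 188 to 386 CPM (-1.04 ± 0.30, edgeR adjusted p = 0.0317). ATP5C1 was at 190 and 198 CPM against 201 to 987 CPM (-1.13 ± 0.37, edgeR adjusted p = 0.0451). It was nearly as low for mir3613-5p, at 228 and 201 CPM, and the reference held the high mir550-3p libraries, at 765 and 987 CPM.

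These calls for mir1301-3p rested on both of its libraries. Without replicate 1, the count of called members fell from 13 to 1, with CYC1 at -0.75, ATP5G1 at -0.95, NDUFB9 at -0.98, NDUFA8 at -1.13, NDUFA9 at -1.35, SDHB at 1.07, ATP5G3 at 0.74, NDUFA4L2 at 1.55 and COX7A1 at 2.43, none of these called. Without replicate 2, NDUFB9 (-1.68), NDUFA8 (-1.16), NDUFA9 (-1.12), ATP5G1 (-1.86), SDHB (1.32), ATP5G3 (0.83), NDUFA4L2 (1.98) and COX7A1 (2.21) were lost, and CYC1 kept its call. Leaving out mir1180-3p replicate 1 lost CYC1 (-1.40), ATP5G1 (-1.32), ATP5G3 (0.85) and COX7A1 (2.19). Leaving out mir550-3p replicate 1 lost CYC1 (-1.39), ATP5G1 (-1.32), ATP5G3 (0.82) and COX7A1 (2.16). ATP5G3 was lost too without mir3613-5p replicate 1 (0.80), mir1180-3p replicate 2 (0.73) or mir550-3p replicate 2 (0.75), and COX7A1 without mir1271-5p replicate 1 (2.07) or mir3613-5p replicate 1 (2.13). Without mir1271-5p replicate 2 the count rose to 18.

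The mir1301-3p libraries also differed from each other in these genes. Of the 88 members with a mean of at least 5 CPM, 33 had their lowest value of the 12 libraries in mir1301-3p replicate 1 and 12 in replicate 2; of all genes at that level, 20.3% and 21% did. NDUFV1, the core subunit that binds NADH and flavin, was at 15.5 CPM in the first of these libraries and 75.9 CPM in the other, a difference of 2.28 on the log2 scale, while COX7A2L was lower by 1.36 in replicate 2 (-1.36). Replicate 1 had the smallest total of the 16 libraries, 7612758 counts; whether depth has a part in this was not tested. Fibroblast markers also moved with this group: 5 of the 6 were higher in both mir1301-3p libraries than in each of the 10 others. Their sum was 51.8 and 147 CPM against 7.84 to 21.9 CPM. Summed neuron and glia markers were highest in this group too, at 35.9 and 34.2 CPM against 19.9 to 30.1 CPM. The share of all genes above the 10 others was not counted, and 11.5% of all genes were called higher for mir1301-3p. The markers are therefore not read as a sign of a cell type. Their part in the members' values was not tested.

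The split of calls for mir1301-3p depended on the scaling, while the median member stayed below 0. The median member lay at -0.46, beside -0.02 for all genes, and 72 of 94 members were below 0. With upper-quartile scaling the medians were -0.08 and 0.38, and 42 members were above 0, so the members stayed below the median of all genes while the number of calls changed to 13 higher and 3 lower. DESeq2 called 4 higher and 15 lower. Under upper-quartile scaling CYC1 (-1.03), ATP5G1 (-0.96) and NDUFA8 (-0.74) were not called. Of the 87 other pathway genes 1 was called higher and 7 lower (8.05%), including COQ5, a methyltransferase of coenzyme Q synthesis (0.38-fold, edgeR adjusted p = 0.015), TMEM186, a complex I assembly factor (0.414-fold, edgeR adjusted p = 0.0172), and ATPAF1, an assembly factor for the F1 head (0.485-fold, edgeR adjusted p = 0.0243).

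**Figure D3:**
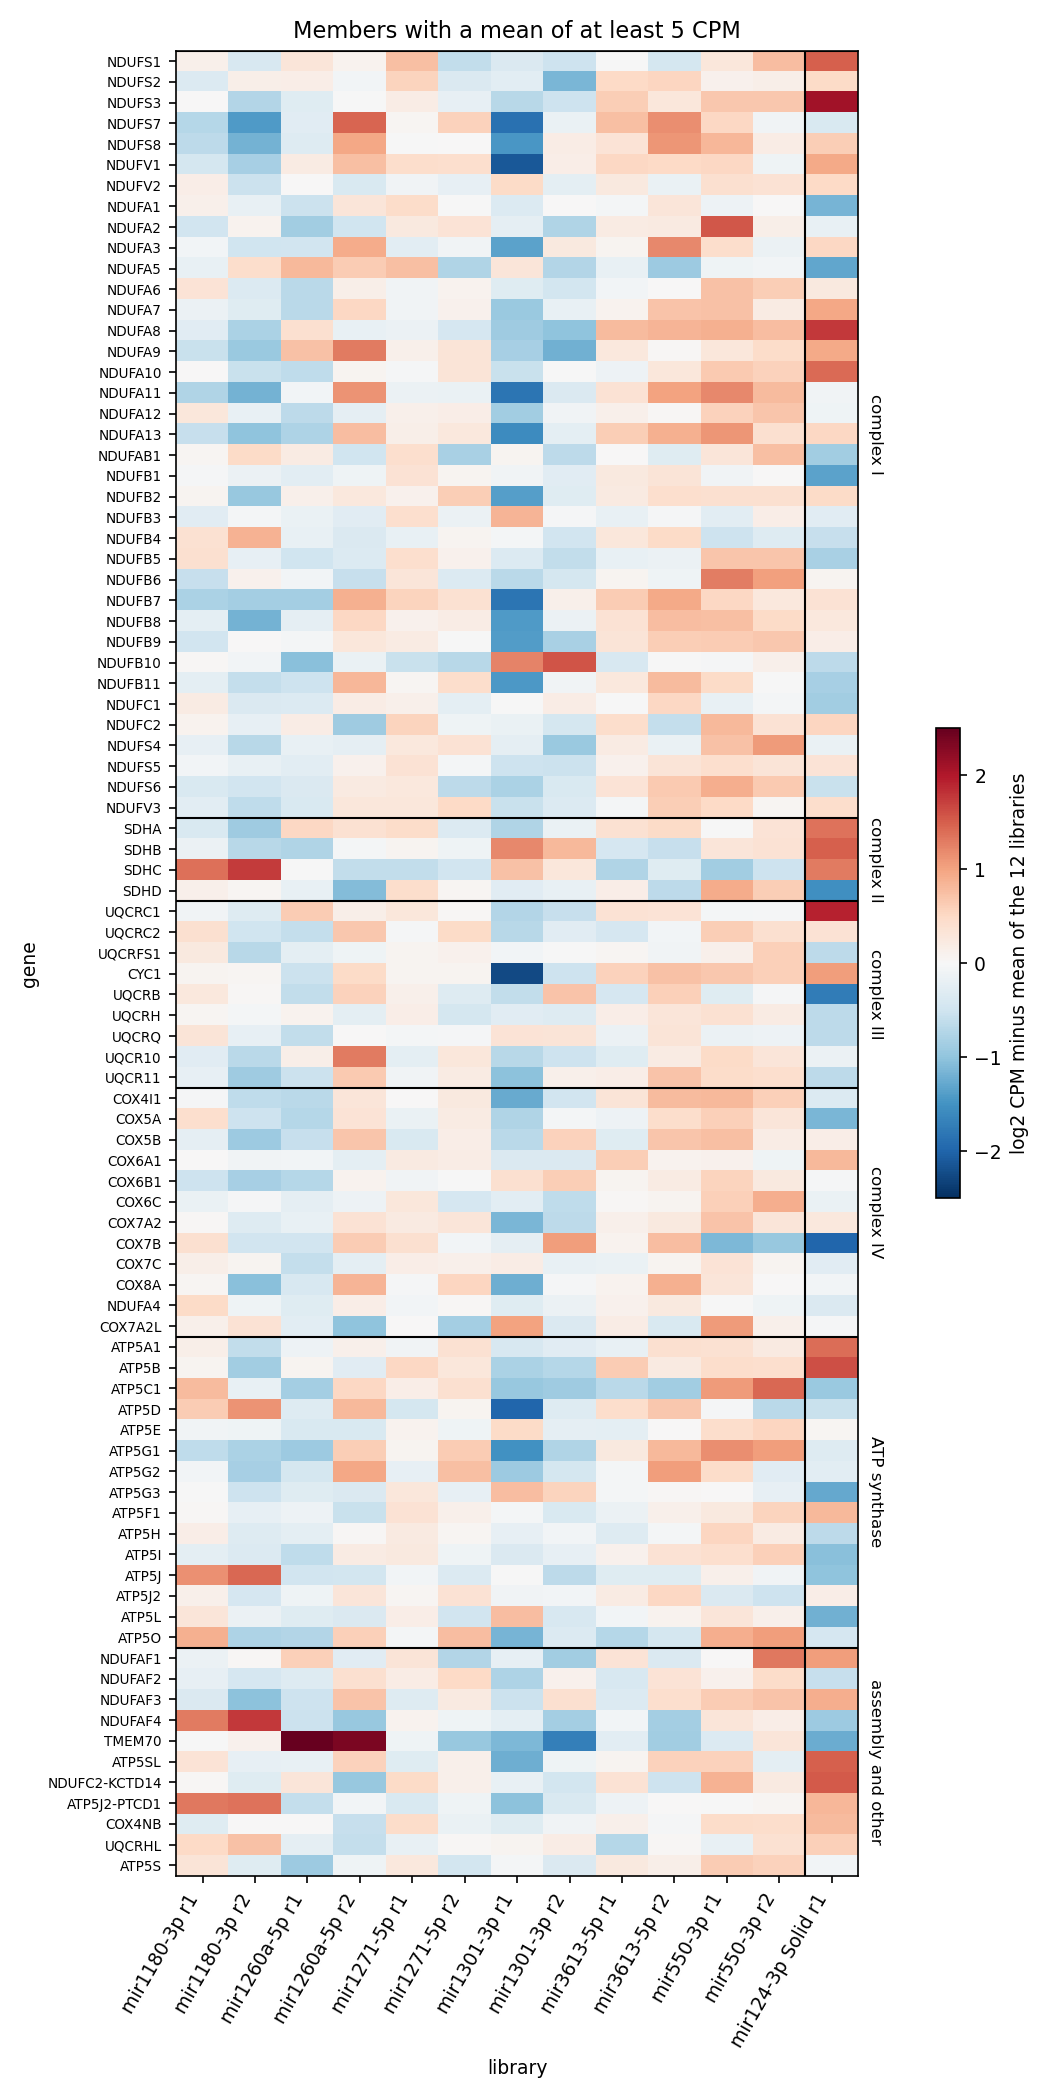
Log2 CPM of each member with a mean of at least 5 CPM, minus its mean over the 12 libraries of the 6 miRNAs, in those libraries and in the mir124-3p Solid library. Rows are genes grouped by complex and columns are libraries; red is higher and blue lower, with the colour scale ending at 2.5. The red TMEM70 cells in the mir1260a-5p columns and the blue column of mir1301-3p replicate 1 stand out.

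The mir550-3p libraries had 2 members called higher (2.13%, against 1.2% of all genes) and 0 lower (0.306% of all genes). ATP5C1, the gamma subunit that forms the rotating shaft of ATP synthase, was at 765 and 987 CPM against 190 to 634 CPM (2.66-fold, log2 1.41 ± 0.30, edgeR adjusted p = 0.0251). NDUFB6, an accessory subunit of complex I, was at 414 and 348 CPM against 107 to 212 CPM (2.5-fold, log2 1.32 ± 0.26, edgeR adjusted p = 0.0147). Neither overlapped with the reference. Without mir550-3p replicate 1 or replicate 2, neither was called (ATP5C1 at 1.53 and 1.28, NDUFB6 at 1.13 and 1.5), and without mir1180-3p replicate 2 ATP5C1 was not called (1.33, edgeR adjusted p = 0.0528). Without mir1271-5p replicate 1 the count was 7.

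Beyond these calls, 70 of 94 members had a positive fold change for mir550-3p, with a median of 0.39 beside -0.05 for all genes. With upper-quartile scaling the medians were 0.27 and -0.17. Replicate 1 held the highest of the 12 values for 26 of the 88 members of at least 5 CPM and replicate 2 for 15, against 9.47% and 13.1% of all genes. ATP5G1 was at 302 and 279 CPM against 46.7 to 235 CPM (1.23 ± 0.32, edgeR adjusted p = 0.0623), without overlap and without a call. COX7B, a small subunit of complex IV, stood at the other end, at 80.1 and 90 CPM against 125 to 359 CPM (-1.37 ± 0.42, edgeR adjusted p = 0.106). SDHC (-0.88) and ATP5J2 (-0.57) followed it. DESeq2 called 7 members higher and 1 lower.

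Of the 87 other pathway genes, 6 were called higher for mir550-3p (6.9%) and 0 lower. C20orf7, now named NDUFAF5 and an assembly factor of complex I, was 3.48-fold higher (edgeR adjusted p = 0.0036). COX16, a complex IV assembly factor, was 2.74-fold higher (281 ± 11.4 against 100 ± 18.4 CPM, SD, n = 2 and 10, edgeR adjusted p = 0.00533). ATPIF1, the inhibitor of ATP synthase, was 2.41-fold higher (1930 ± 31 against 782 ± 105 CPM, SD, n = 2 and 10, edgeR adjusted p = 0.00938). The remaining 3 were C2orf56 (now NDUFAF7), COQ3 and COQ5, which were also among those lower for mir1301-3p; each of these miRNAs is in the reference of the other.

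For mir1271-5p and mir3613-5p no member was called by edgeR. For mir1271-5p, 2 members (2.13%, against 9.34% of all genes) had an unadjusted p under 0.05 and DESeq2 called 0, where edgeR called 0.606% of all genes higher and 0% lower. NDUFB10 had the lowest value among members of at least 5 CPM, at 299 and 270 CPM (-0.71 ± 0.30, edgeR adjusted p = 0.481), and the reference it was set against held the high mir1301-3p libraries. ATP5B (0.52), NDUFV3 (0.5) and NDUFB7 (0.49) were at the upper end, and SDHC was at -0.62. The median member was at 0.13, beside 0.05 for all genes, and 62 of 94 were above 0; with upper-quartile scaling 30 were, with medians of -0.11 and -0.19. For mir3613-5p, 18 members (19.1%, against 14.1% of all genes) had an unadjusted p under 0.05 and DESeq2 called 1, where edgeR called 0.0906% of all genes higher and 0% lower.

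Complex I made up most of the 18 members for mir3613-5p. Of its 37 subunits, 31 had a positive fold change and 13 (35.1%) an unadjusted p under 0.05, with a median of 0.43. Of all genes, 51% were positive, with a median of 0.01. Of the core subunits, 6 of 7 were positive. Over all members the median was 0.23, with 70 of 94 positive; with upper-quartile scaling it was 0.06, with 50 positive, beside -0.18 for all genes. The largest were NDUFS7 (1.13 ± 0.40, edgeR adjusted p = 0.259), NDUFA8 (1.08 ± 0.26, 0.16) and NDUFB7 (0.93 ± 0.41, 0.327). NDUFA8 was at 79.7 and 83.2 CPM against 22.9 to 85.7 CPM, so its libraries overlapped with those of mir550-3p. ATP5C1 (-0.88) and ATP5O (-0.70), a stalk subunit, had the lowest values of members at 5 CPM or more. CYC1 was at 0.81 ± 0.34 (edgeR adjusted p = 0.313).

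The subunits of each complex were also summed, on CPM scaled over all 16 libraries. Complex I summed to 7272 and 8141 CPM for mir550-3p, 6443 and 7346 CPM for mir3613-5p, 5567 and 6806 CPM for mir1271-5p, 4876 and 6644 CPM for mir1260a-5p, 5007 and 5464 CPM for mir1180-3p, and 4888 and 5563 CPM for mir1301-3p. Neighbours in that order overlapped throughout. ATP synthase was highest for mir550-3p as well, at 6835 and 7113 CPM, above the 4099 to 6756 CPM of the other miRNAs with 2 libraries. Complex II ran from 178 and 212 CPM for mir1260a-5p to 340 and 372 CPM for mir550-3p in the 12 libraries. Complex III, at 2891 and 3014 CPM for mir550-3p, lay above mir1180-3p, mir1271-5p and mir1301-3p and overlapped with mir1260a-5p and mir3613-5p. Complex IV, at 4650 and 5765 CPM for mir550-3p, overlapped with mir3613-5p alone. These sums are a description with no test.

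**Figure D4:**
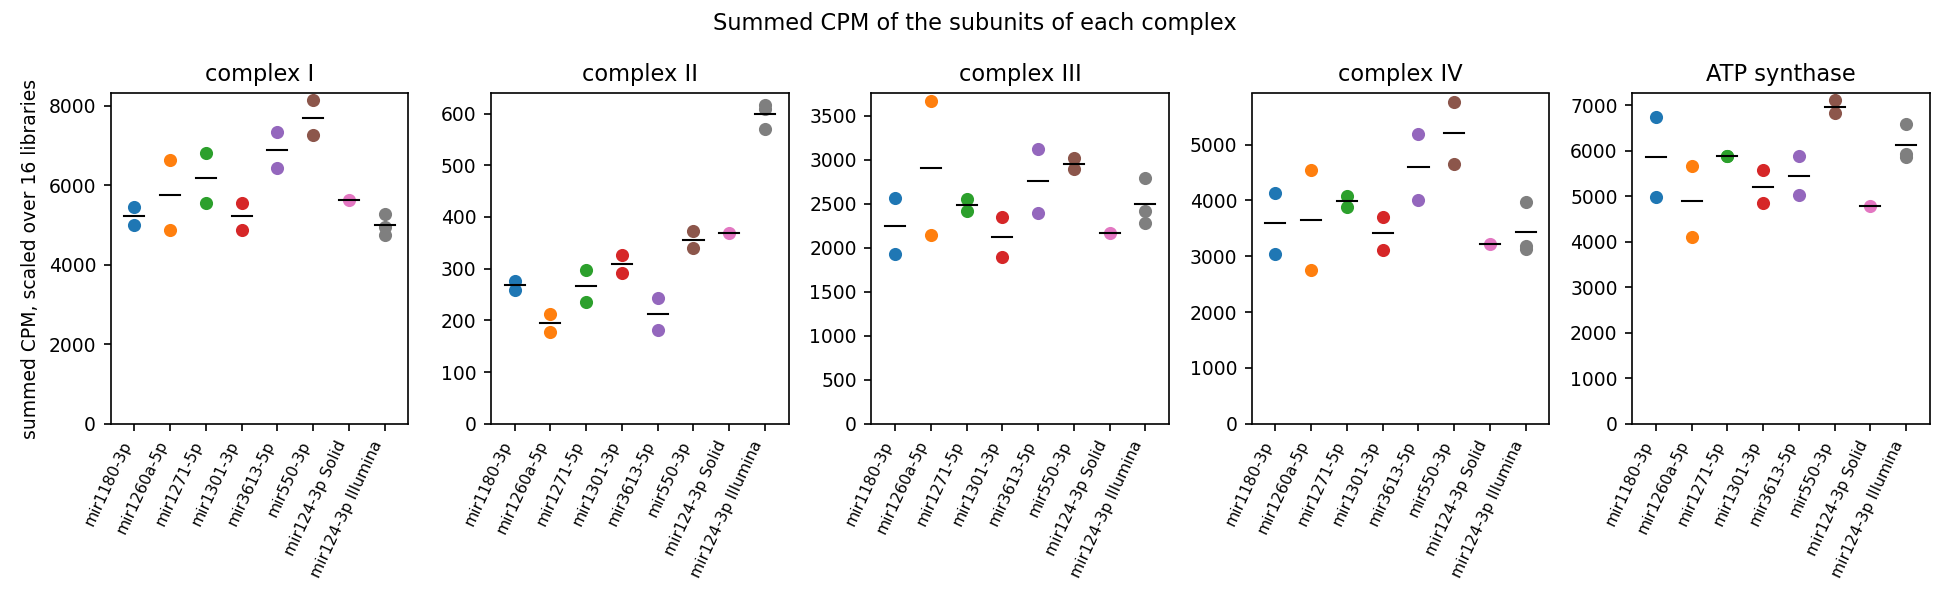
Summed CPM of the nuclear subunits of each complex in each library, scaled over all 16 libraries; points are libraries, bars group means, and each vertical axis starts at 0. Complex II is at 570 to 617 CPM in the Illumina libraries, above every other library.

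The median SD of log2 CPM over the 12 libraries was 0.51 for the 88 members and 0.52 for 11589 genes of at least 5 CPM. By CPM, which also depends on transcript length, NDUFA1 had the highest mean in complex I (729 ± 141 CPM, SD, n = 12), SDHD in complex II (143 ± 52.7), UQCR10 in complex III (717 ± 333), COX5A in complex IV (716 ± 213) and ATP5G3 in ATP synthase (1360 ± 389). The lowest were NDUFV2 (34.6 ± 7.82 CPM), SDHC (25 ± 18.7), UQCRC1 (62.7 ± 16.6), COX6A2 (0.112 ± 0.106) and ATP5J2 (103 ± 22.7). Several subunits exist as paralogs with tissue forms. The common forms COX4I1, COX6A1, COX6B1, COX7A2, COX7B, COX8A and NDUFA4 had at least 647 counts in every one of the 12 libraries. So did COX7A2L, a paralog of COX7A2. COX4I2, COX6A2, COX6B2, COX7A1, COX7B2 and COX8C, the lung, muscle or testis forms, and NDUFA4L2 had at most 73 counts. COX4I2, COX6A2, COX7A1 and COX7B2 were at 0 counts in at least 1 library.

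In the mir124-3p Solid library, set against the 6 miRNAs, 10 of 94 members were called higher (10.6%, against 7.31% of all genes) and 4 lower (4.26%, against 1.58%). This comparison has 1 library on one side, and its spread was taken to equal that of the 6 miRNAs. The labels do not name the sequencer of the 12 libraries of those miRNAs, so miRNA and platform cannot be told apart here. The members called higher included core or catalytic subunits of complexes I, II and III and of ATP synthase. NDUFS3, a core subunit of complex I, was at 248 CPM against 34.1 to 104 CPM (3.91-fold, log2 1.97 ± 0.32, edgeR adjusted p = 0.000925). UQCRC1, a core protein of complex III, was at 213 CPM against 34.7 to 91.5 CPM (3.48-fold, log2 1.80 ± 0.30, edgeR adjusted p = 0.00118). ATP5B, the catalytic beta subunit of ATP synthase, was at 1130 CPM against 200 to 678 CPM (2.77-fold, log2 1.47 ± 0.33, edgeR adjusted p = 0.00922). Each was above all 12 other libraries and was called under each of 17 alternatives.

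SDHB was also higher in the Solid library, at 209 CPM against 45.4 to 175 CPM (log2 1.36 ± 0.33, edgeR adjusted p = 0.0156), and so was NDUFA8, at 144 CPM against 23.6 to 87.8 CPM (1.63 ± 0.32, edgeR adjusted p = 0.00393). NDUFC2-KCTD14 was at 198 CPM against 39.1 to 138 CPM (1.38 ± 0.40, edgeR adjusted p = 0.0369). Its counts overlap with NDUFC2, so this call is uncertain, and it was lost without mir1180-3p replicate 2 (1.42) or mir550-3p replicate 2 (1.32). Of the members called lower, COX7B was at 41 CPM against 82 to 376 CPM (-2.17 ± 0.61, edgeR adjusted p = 0.0331). SDHD, the second membrane anchor of complex II, was at 42.8 CPM against 65.2 to 263 CPM (-1.69 ± 0.47, edgeR adjusted p = 0.0329). NDUFB1, a small accessory subunit of complex I, was at 70.6 CPM against 156 to 267 CPM (-1.46 ± 0.38, edgeR adjusted p = 0.0231), and ATP5G3 at 501 CPM against 835 to 2150 CPM (-1.41 ± 0.40, edgeR adjusted p = 0.036).

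Of these, COX7B was lost without mir550-3p replicate 1 (-2.17) or replicate 2 (-2.16), and SDHD without mir1180-3p replicate 1 (-1.61), replicate 2 (-1.62) or mir550-3p replicate 1 (-1.65). ATP5G3 was lost without mir1180-3p replicate 1 (-1.29), mir3613-5p replicate 1 (-1.41) or replicate 2 (-1.34), or mir550-3p replicate 1 (-1.38) or replicate 2 (-1.44). The split of calls depended on the scaling: 7 higher and 10 lower with upper-quartile scaling, and 12 higher and 11 lower by DESeq2. TMEM70, at 74.4 CPM against 61.3 to 1140 CPM, was not called (-1.40 ± 0.45, edgeR adjusted p = 0.0607). CYC1, at 320 CPM against 33.4 to 291 CPM, was above all 12 without a call (0.86 ± 0.45, edgeR adjusted p = 0.254), and UQCRB, at 45.7 CPM against 105 to 289 CPM, was below all 12 (-1.95 ± 0.60, edgeR adjusted p = 0.0513).

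Grouped by role, with roles assigned after earlier results were known, the core or catalytic subunits lay higher than the rest in the Solid library. Of 18 such subunits, 13 had a positive fold change, with a median of 0.57, and 6 were called higher and 0 lower. Of the 63 other subunits tested, 20 were positive, with a median of -0.36, and 3 were called higher and 4 lower. Over all genes the median was -0.12. The same classes had medians of -0.66 and -0.42 for mir1301-3p, -0.33 and -0.26 for mir1180-3p, 0.55 and 0.26 for mir3613-5p, 0.39 and 0.41 for mir550-3p, 0.20 and 0.16 for mir1271-5p, and 0.01 and -0.10 for mir1260a-5p. The difference between the classes was not tested.

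**Figure D5:**
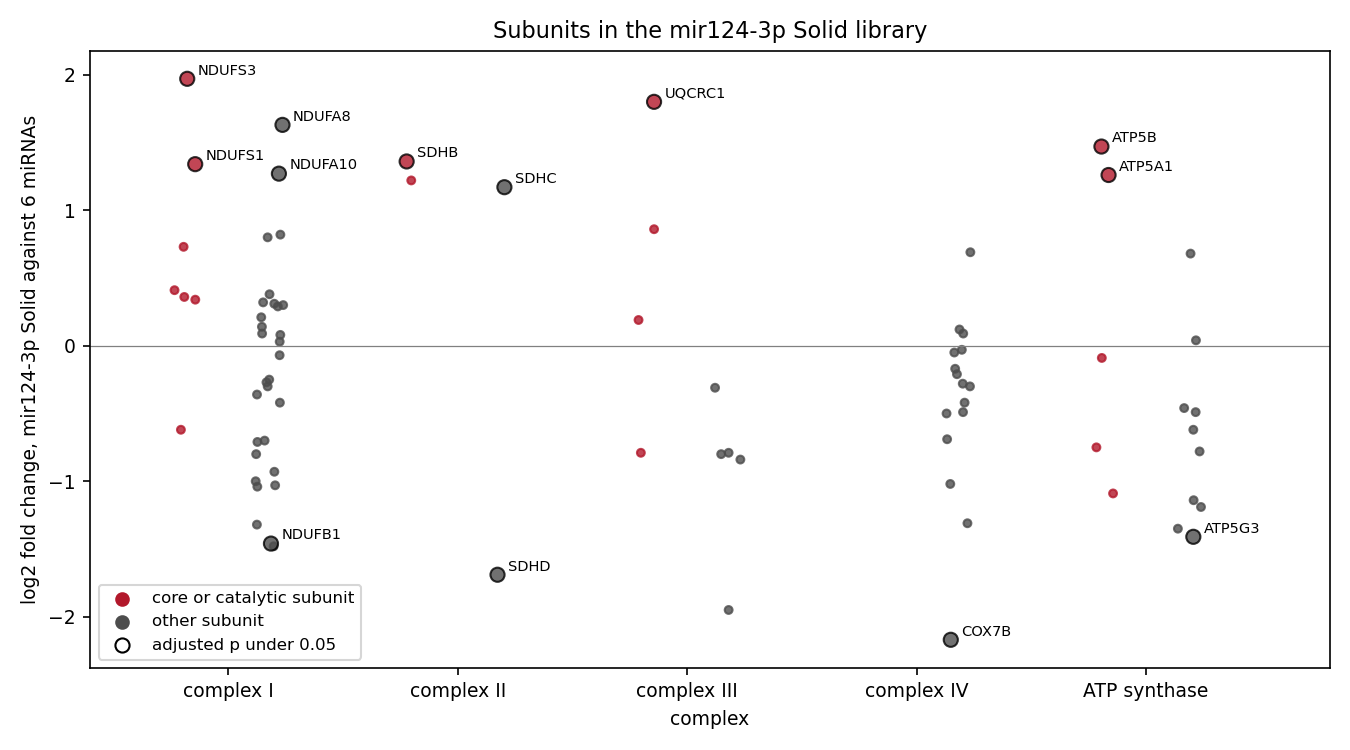
Log2 fold change of each subunit in the mir124-3p Solid library against the 6 miRNAs, by complex; red points are core or catalytic subunits, grey points the others, and outlined, named points have an adjusted p under 0.05. The called red points are all above 0, and 4 of the called grey points are below it.

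Among the 87 other pathway genes, 10 were called higher in the Solid library (11.5%) and 1 lower. The 3 with the smallest adjusted p were FOXRED1, an assembly factor of complex I (63.6 CPM against 5.51 to 26 CPM, edgeR adjusted p = 0.00227), COQ6, a hydroxylase of coenzyme Q synthesis (50 CPM against 5.62 to 29.6 CPM, edgeR adjusted p = 0.00571), and ADCK3, now COQ8A (77.7 CPM against 9.84 to 48.1 CPM, edgeR adjusted p = 0.00938). Of the 19 cytochrome c and coenzyme Q genes, 6 were called higher and none lower. The gene called lower was VDAC1, a channel of the outer mitochondrial membrane, at 147 CPM against 270 to 548 CPM.

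The 3 Illumina libraries of mir124-3p were set against its Solid library, and 17 of the 92 members tested were higher (18.5%, against 5.93% of all genes) and 7 lower (7.61%, against 11.2%). DESeq2 called 23 higher and 5 lower. The Solid side has 1 library, and its spread was taken to equal that of the Illumina libraries, so no spread between Solid libraries was measured. CPM in this comparison were scaled over the 4 mir124-3p libraries. Platform, and the different counting noted above, cannot be told apart here. ATP5E, the epsilon subunit of ATP synthase, and NDUFB11, an accessory subunit of complex I, had 0 counts in all 3 Illumina libraries. By unscaled CPM ATP5E was at 187 to 392 CPM in the 13 other libraries, and at 227 CPM in the Solid library; a floor of 3 counts over the 3 libraries together, 0.0451 CPM, makes it at least 5020-fold lower. NDUFB11 was at 96 to 409 CPM in the 13 others and at 114 CPM in the Solid library, and by the same floor at least 2530-fold lower in the Illumina libraries. In all, 14 of 7573 genes with at least 100 counts in each of the 13 libraries were at 0 in the 3 Illumina libraries.

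Of the 4 subunits of complex II, 3 were called higher in the Illumina libraries. SDHC was at 162, 176 and 178 CPM against 35.2 CPM (4.81-fold, log2 2.27 ± 0.24, edgeR adjusted p = 0.00111), and SDHD at 80.9, 122 and 80.8 CPM against 32.1 CPM (2.9-fold, log2 1.53 ± 0.32, edgeR adjusted p = 0.0146). SDHA, the flavoprotein of complex II, was at 112, 96.7 and 122 CPM against 45.9 CPM (2.37-fold, log2 1.25 ± 0.25, edgeR adjusted p = 0.0116). SDHA is a member, but it was not among the called members named by size. It was chosen for mention after its values were seen. UQCRFS1, the Rieske iron-sulphur protein of complex III, was at 275, 326 and 284 CPM against 62.5 CPM (4.65-fold, log2 2.22 ± 0.27, edgeR adjusted p = 0.00171). ATP5G2 (3.42-fold), ATP5H (3.37-fold), a stalk subunit, and NDUFV2 (3-fold), a core subunit of complex I, were higher too. All 7 stalk or membrane subunits of ATP synthase were above 0, with a median of 0.89 beside -0.01 for all genes, and 2 were called. Among the stalk or membrane subunits, ATP5J2 had the same count as PTCD1 and ATP5J2-PTCD1 in each Illumina library. In the Solid library these 3 genes had 1355, 2380 and 3081 counts, so the value of ATP5J2 is uncertain. Every Illumina library was above the Solid library in SDHC, SDHD, SDHA, UQCRFS1, ATP5G2, ATP5H and NDUFV2.

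The lower members included near copies and genes at low counts. UQCRHL, a near copy of UQCRH, was at 5.41, 2.84 and 2.42 CPM against 28.9 CPM (log2 -3.05 ± 0.38, edgeR adjusted p = 0.00204). ATP5L2 (-2.73) and NDUFA4L2 (-2.0) were below 3 CPM in all 4 libraries and were not called by DESeq2. NDUFA2, an accessory subunit of complex I, was at 64.4, 91.1 and 65.4 CPM against 165 CPM (-1.19 ± 0.25, edgeR adjusted p = 0.0146). TMEM70 was at 55.1, 60.1 and 57 CPM against 55.9 CPM (0.02 ± 0.21, edgeR adjusted p = 0.976) and CYC1 at 316, 345 and 343 CPM against 240 CPM (0.46 ± 0.24, edgeR adjusted p = 0.277). The number of members called changed with the Illumina library left out, and was largest without replicate 2, the library with the low TNRC6A count. The share of all genes called in those fits is not given, so the change is not read as a result about the members. Of the 87 other pathway genes 9 were called higher and 3 lower, and by adjusted p the first 3 were COX20 (0.0794-fold) and SCO2 (0.0831-fold), complex IV assembly factors, and the channel VDAC2 (5.07-fold).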

How the data were processed

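The authors deposited raw counts per gene, 1 column to each of 16 libraries, with no normalisation; TopHat2 and hg19 are named in the submitters' processing notes, while the counter, its strand setting and the gene models used are not stated in the labels. All columns were used, and all 96 members matched a RefSeq table by accession (22 symbols have since changed). Members, gene lists, roles and tests were chosen with earlier results of these data known.

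Counts were fitted in R 4.3.3 with edgeR 4.0.16: filterByExpr, TMM scaling, robust glmQLFit on group means, two-sided tests, with 12 libraries for the 6 miRNAs, 13 with mir124-3p Solid and 4 for the platforms. Adjusted p-values are Benjamini-Hochberg over all genes tested. CPM were scaled over the libraries of each comparison unless stated; log2 CPM used a prior count of 2. Errors of log2 fold changes are SE, those of CPM SD. DESeq2 1.42.0, upper-quartile scaling, no filter, a replicate block, other references and leaving out each library were alternatives.

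Named were, in each comparison, called members (up to 6 each way), the 3 highest and 3 lowest at 5 CPM or more, TMEM70 and CYC1, the extremes of each complex, paralogs, and up to 3 called genes of the pathway lists. The fit was tested on simulated data. For the 6 miRNAs it called 84% to 91% of 4-fold changes and 13% to 20% of 2-fold changes. For the Solid library these shares were 46% and 3%, and for Illumina against Solid 97% and 25%. Most 2-fold changes would therefore be missed. False calls made up 3% to 9.32% of the calls. Their share was above the threshold of 0.05 for mir1260a-5p, mir1301-3p, mir3613-5p, mir550-3p and the Solid library. The simulated libraries were drawn independently of each other, so these shares may not hold for the deposited libraries. Same-numbered libraries did not all deviate together: of 15 pairs of groups, 6 correlated above 0.1 and 8 below -0.1, from -0.3 to 0.49. Some libraries of different groups therefore shared deviations, and the source of these was not tested. The planned description of seed matches was not run.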

Additional observations from a re-analysis of the deposited data

How the results depend on the processing

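No named member that was called changed sign under any alternative run. The median of the members did for mir1271-5p with upper-quartile scaling (0.13 to -0.11) and for mir1260a-5p without its replicate 1 (-0.09 to 0.06), and the splits of calls given above for mir1301-3p and the Solid library turned with the scaling. The number of members called moved by over 1.5 times in these cases. By DESeq2, 23 members were called for the mir124-3p Solid library, 8 for mir550-3p, 7 for mir1180-3p, 2 for mir1260a-5p and 1 for mir3613-5p. With upper-quartile scaling 2 were called for mir1260a-5p; with no filter on low counts 2 for mir1260a-5p and 5 for mir550-3p. With the replicate number as a block, 4 were called for mir550-3p. NDUFC2-KCTD14 (1.09) and COX7B (-2.01) lost their calls in the Solid library under that setting. Correlations between same-numbered libraries had both signs, so whether the numbers mark shared handling is not known. With mir1301-3p as the only reference, the other miRNA whose descriptions take the same form, 18 were called for mir550-3p. Leaving out each library in turn, called members ranged from 1 to 5 for mir1180-3p, 1 to 1 for mir1260a-5p, 0 to 0 for mir1271-5p, 1 to 18 for mir1301-3p, 0 to 0 for mir3613-5p, 0 to 7 for mir550-3p, 8 to 19 for the Solid library and 19 to 65 for Illumina against Solid. Without its most abundant member, the mean total fell from 268 to 132 CPM for complex II, from 2578 to 1897 CPM for complex III and from 5716 to 4423 CPM for ATP synthase, by construction. The shares of all genes called under these alternatives are not given, so these counts are not read as a result about the members. Where not stated otherwise, the cause of a change was not tested. With 2 libraries a group and the common biological coefficient of variation at 0.35, a member without a call is not shown to be unchanged.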
